A study of Mus musculus with 4 samples.

Results

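Plasmacytoid dendritic cells of the thymus were identified in single-cell RNA data on thymic cells that had been sorted by a fluorescent reporter. A cell counted as one when it held at least 5 UMIs of Siglech, at least 1 of Ccr9 and at least 2 of Tcf4, fewer than 30 of C1qa, C1qb and C1qc together, 0 of Xcr1 and at most 1 of Cd3e. A UMI, or unique molecular identifier, stands for a single RNA molecule. Before this gate, cells were kept with 1000 to 7000 genes and at most 10% mitochondrial UMIs. The gate found 1257 cells among 23549 filtered cells of 3 libraries, in a series of 4 libraries with 29042 filtered cells. The values that chose the cells are measured in the same libraries, so everything that sets them beside other cells is given as a description without a test.

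The libraries came from 2 kinds of C57BL/6 reporter mouse. MAFIA mice carry the transgene Csf1r-EGFP-NGFR/FKBP1A/TNFRSF6, in which a green protein and an inducible death receptor are driven by the Csf1r promoter (Csf1r is the receptor of macrophage growth factors), and were 5 weeks old and female. Cd11cYFP mice carry Itgax-Venus, in which the promoter of Itgax (CD11c) drives a yellow protein, and were 9 weeks old and male. Every mouse was killed with CO2 and its thymus was digested with enzymes before GFP+ or YFP+ cells were sorted. MAFIA replicate 2 and Cd11cYFP replicates 1 and 2 are compared here, so reporter, sex, age and library cannot be told apart. The study's methods name 1 MAFIA mouse and 2 Cd11cYFP mice, and do not say how that mouse relates to the 2 MAFIA libraries. MAFIA replicate 1 was shallow, with a median of 3979 UMIs in its filtered cells, and gave 15 gated cells.

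Plasmacytoid dendritic cells are rare dendritic cells that sense nucleic acids in endosomes through Tlr7 and Tlr9 and can release large amounts of type I interferon. Their identity depends on the transcription factor Tcf4 (E2-2), while Id2, Batf3 and Zbtb46 are factors of conventional dendritic cells. They share parts of a lymphoid program, such as rearranged immunoglobulin genes and Dntt, with B cells. Those in the thymus arrive from the blood and use Ccr9, the receptor for the chemokine Ccl25.

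Gated cells made up 14.2% of filtered cells in MAFIA replicate 2 (880 of 6219, exact 95% interval 13.3 to 15.0). The share was 3.03% in Cd11cYFP replicate 1 (232 of 7646, interval 2.66 to 3.44) and 1.50% in Cd11cYFP replicate 2 (145 of 9684, interval 1.26 to 1.76). The interval covers counting error only and none of the 3 overlaps another, and 1 library against 2 allows no test at the level of mice. These shares are shares of a sort, and the sort gate differed between the reporters. MAFIA replicate 1, which the rule did not use, gave 0.273% (15 of 5493).

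**Figure D1:**
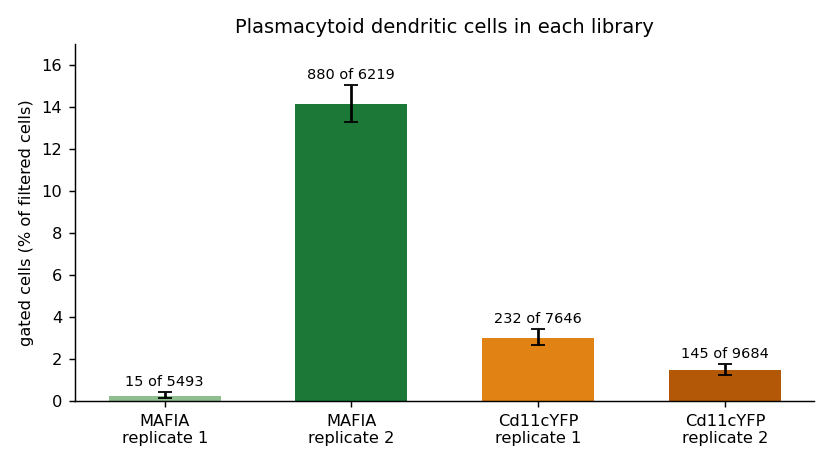
Gated cells as a percentage of filtered cells (y axis) in each of the 4 libraries, with exact 95% binomial intervals as error bars and the counts above the bars. MAFIA replicate 2 stands at 14.2% and the other 3 libraries lie between 0.273% and 3.03%.

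The reporter genes were read beside their parent genes. Csf1r RNA in the gated cells was 19.2, 19.9 and 20.3 CPM (UMIs of the gene over all UMIs of the summed cells, scaled to counts per 1000000, in MAFIA replicate 2, Cd11cYFP replicate 1 and Cd11cYFP replicate 2, the order used throughout). All other cells held 192, 134 and 97.7 CPM, so this parent gene was lower by over 1 log2 unit in all 3 libraries. Itgax stood at 103, 159.8 and 165 CPM beside 111, 127 and 112 CPM in other cells. YFP RNA was found in 73 of 232 and 40 of 145 gated Cd11cYFP cells and in 2 of 880 gated MAFIA cells, at 0.172, 288 and 133 CPM. EGFP RNA came to 0.431, 0 and 0 CPM.

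The label was checked against Klk1 and Upb1, the markers given for the cell type that the gate did not use. Klk1, a kallikrein protease, had medians of 16, 13.5 and 14 UMIs and was found in 89.0%, 84.1% and 77.2% of cells. Upb1, an enzyme of pyrimidine breakdown, was found in 96.3%, 90.9% and 82.8%. The gate genes are given as a description only. Siglech, the sialic acid-binding lectin of this cell type, had a median of 30 UMIs per cell in all 3 libraries, and Tcf4 had medians of 25, 26 and 26. Median Ccr9 was 14, 16 and 13 UMIs. Siglech lies at chr7:55417926-55429195 on the plus strand of GRCm39, Klk1 at chr7:43874725-43879048 and Upb1 at chr10:75236949-75279771, both also on the plus strand.

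The 3 libraries held 880, 232 and 145 gated cells. Beside these numbers, cells near the edge of the gate were fewest in MAFIA replicate 2 and most in Cd11cYFP replicate 2. Gated cells with 5 to 9 Siglech UMIs numbered 31, 10 and 16, and Klk1 was found in 48.4%, 30% and 6.25% of them. Their median depth was 18078, 18734 and 23533.5 UMIs, above the 11639, 11167 and 10318 UMIs of all gated cells. Just outside, 84, 55 and 89 cells met every other condition with 1 to 4 Siglech UMIs, and Klk1 was found in 8.33%, 1.82% and 3.37% of them. A further 16, 13 and 17 cells failed only for lack of Ccr9, with Klk1 in 6.25%, 0% and 5.88%. Of all cells with at least 5 Siglech UMIs (1031, 276 and 236), the gate left out 86, 15 and 35 for Xcr1 and 37, 12 and 36 for C1q, some for both, and these stay among the other cells.

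Markers of other cell types were read in the gated cells, and markers of the gated cells in others. Other dendritic cells positive for Xcr1 held 2.53, 0.522 and 0.369 CPM of Klk1 and 7.97, 3.53 and 5.49 CPM of Siglech. Markers of macrophages outside the gate (Mertk, Adgre1, Vcam1) summed to 18.8, 11.6 and 19.8 CPM in the gated cells beside 532, 349.9 and 249 CPM in other cells. B cell markers summed to 835, 680.2 and 447 CPM, nearly all of it Igkc, while Ms4a1 and Pax5 stood at 31.8, 13.3 and 20.3 and 7.84, 3.32 and 3.65 CPM. Markers of Cd209a dendritic cells summed to 298, 326 and 480 CPM beside 516, 144 and 334 in other cells. This sum was thus higher than in other cells in both Cd11cYFP libraries. Markers of Ccr7 dendritic cells summed to 263, 165 and 414 CPM beside 1134, 1239 and 1600. The plasma cell sum was 7.07, 39.2 and 101 CPM beside 20.3, 379 and 281. NK markers summed to 1.81, 0 and 0.521 CPM, and the neutrophil sum was 13.0, 0.332 and 0. Fibroblast and epithelial sums were 0.172, 0.997 and 41.7 CPM and 8.19, 5.32 and 69.8 CPM, highest in Cd11cYFP replicate 2, where 1 cell with 38737 UMIs, 5 Siglech UMIs and no Klk1 held 77 of 80 Dcn and 97 of 98 Krt5 UMIs. Gated cells of different libraries shared no barcode, and 3 and 4 gated MAFIA barcodes were also found among other cells of Cd11cYFP replicates 1 and 2.

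Beside all other cells of the same library, 14369 genes with at least 10 UMIs over the gated cells or 500 over the other cells were compared. In the gated cells 1204 genes (8.38%) were higher by over 1 log2 unit in all 3 libraries and 1530 (10.6%) were lower. The median log2 ratio over all genes was 0.05. Of 34 counted genes of the plasmacytoid dendritic cell signature outside the gate, 30 were higher and 1, Gzmb, was lower, with a median log2 ratio of 4.19. Gzmb, a cytotoxic protease that human plasmacytoid dendritic cells make, had 0 UMIs in the gated cells of all 3 libraries. Other cells held 2.68, 5.18 and 0.846 CPM. In Cd11cYFP replicate 2 the gated cells held 1919355 UMIs, and a count of 0 allows up to 3 UMIs. A level as high as in other cells is therefore not excluded in that library. Genes with fewer than 10 UMIs in the gated cells, such as Gzmb, were counted only through their level in other cells.

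The genes that stood furthest above other cells included several enzymes. Klk1 reached 1651, 1509 and 1319 CPM beside 25.4, 3.34 and 4.19, log2 ratios of 6.02 to 8.82. Its paralog Klk1b27, at chr7:43701714-43706136 on the plus strand of GRCm39, reached 237, 219 and 217 CPM. The 2 genes are nearly identical, so how reads were split between them is uncertain. Cox6a2, a muscle-type subunit of cytochrome c oxidase at chr7:127804607-127805559 on the minus strand, reached 1579, 1083 and 1305 CPM beside 27.1, 6.79 and 6.22. Further genes usually tied to muscle followed it, with Pgam2, a glycolytic mutase, at 158, 155 and 139 CPM beside 2.95, 1.20 and 1.03, and Atp2a1, a calcium pump of the sarcoplasmic reticulum, at 187, 133 and 109 beside 3.99, 0.771 and 0.702. The same set of 20 held Pir at 98.3, 70.8 and 63.0 CPM beside 1.49, 0.599 and 0.603, the surface receptors Cd300c (255, 308 and 218) and Klra17 (148, 95.7 and 106), the vascular cadherin Cdh5 (111, 123 and 76.1) and the secreted antagonist Lefty1 (151, 112 and 81.8). In every one of these the lowest ratio of the 3 libraries was over 4 log2 units.

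Higher levels in other cells of MAFIA replicate 2 bear on these ratios. Klk1 stood at 25.4 CPM there against 3.34 and 4.19 in the Cd11cYFP libraries, Cox6a2 at 27.1 against 6.79 and 6.22, and the ratio was lowest in MAFIA replicate 2 for both. That library also held the largest share of gated cells. The part of free RNA and of ungated Siglech+ cells in this was not tested.

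Genes far below other cells included those of macrophages and of conventional dendritic cells. Among the 20 lowest, chosen after their values were seen, were Cxcl9 (12.2, 4.32 and 2.08 CPM beside 320.1, 326 and 214), Axl (15.9, 9.30 and 6.77 beside 219, 134 and 102), Apoe (293, 232 and 299 beside 4351, 3054 and 2604) and the transcriptional inhibitor Id2. The C1q limit of the gate takes out cells with much macrophage RNA, so a low level of such genes is in part a result of the rule.

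Of 11 counted transcription factors of the cell type outside the gate, 6 were higher and 0 lower than in other cells, with a median log2 ratio of 1.25. Runx2, which guides exit from the bone marrow, was at 557, 625 and 558 CPM beside 23.7, 21.2 and 16.8. Spib, an Ets factor, was at 398, 246 and 191 CPM beside 48.8, 31.6 and 23.1, and Bcl11a, which acts upstream of Tcf4, at 678, 634 and 563 beside 95.8, 67.3 and 58.7. Irf8 stood at 3298, 2908 and 2288 CPM beside 851, 939 and 1059, log2 ratios of 1.11 to 1.95. Zeb2 and Ets1 completed the 6, with log2 ratios of 1.10 to 1.54 and 1.01 to 1.75. Irf7, the master regulator of type I interferon genes at chr7:140842619-140846398 on the minus strand, was at 1021, 532 and 233 CPM beside 580.0, 294 and 286, above other cells in 2 libraries and below in Cd11cYFP replicate 2. Beside B cell-like cells (gated on B cell markers, with at least 2 Ms4a1 UMIs), Runx2 differed by 6.41 to 6.54 log2 units and Bcl11a by 1.34 to 2.05, while Ets1 did not pass 1 in either direction.

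Factors of conventional dendritic cells were low. Of 10 counted, 0 were higher and 3 lower by over 1 log2 unit in all 3 libraries (median −1.20). Id2 stood at 39.6, 41.9 and 102 CPM beside 447, 767 and 821. Batf3, required for Xcr1+ dendritic cells, stood at 14.7, 9.30 and 38.6 beside 102, 133 and 150.5, and Relb at 47.8, 46.9 and 80.8 beside 171, 204 and 193. In all 3 of these genes the highest level was in Cd11cYFP replicate 2. The gate takes out cells with Xcr1 and leaves them among the other cells, so a low level of such factors is in part a result of the rule.

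Genes of nucleic acid sensing did not stand apart as a group. Of 26 counted members, 5 were higher and 4 lower, with a median log2 ratio of 0.09. The 5 were Tlr7, Tlr9, Unc93b1, Irf8 and Tasl. Tlr7, the endosomal receptor for single-stranded RNA, was at 135, 126 and 82.3 CPM beside 27.9, 19.8 and 12.0. Tlr9, the receptor for unmethylated DNA, was at 12.3, 6.65 and 6.77 CPM beside 3.20, 2.59 and 2.08, and was found in 5.91%, 3.45% and 2.76% of cells reduced to 5000 UMIs. Unc93b1, which carries these receptors to endosomes, was at 761, 545 and 418 beside 293, 243 and 203. Tasl, an adaptor between Slc15a4 and Irf5, was at 50.2, 86.7 and 61.5 beside 23.7, 20.5 and 18.2. Lower in all 3 were Tlr2, Tlr3, Tlr4 and Tlr8, receptors that plasmacytoid dendritic cells are not known to rely on, with Tlr3 at 2.67, 1.33 and 1.04 CPM beside 23.8, 40.0 and 39.8.

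No RNA of the 9 interferon alpha genes searched was found in 11604136, 3009584 and 1919355 UMIs of gated cells, where a count of 0 allows up to 3 UMIs. Ifnb1 gave 0.689, 0 and 0 CPM. Both chains of the interferon receptor were present, with Ifnar2 at 355, 355 and 258 CPM beside 131, 127 and 90.1 and Ifnar1 at 153, 149.5 and 93.8 beside 65.4, 55.6 and 49.7. Genes that interferon induces were not above other cells as a list. Of 31 counted, 1 was higher (Bst2) and 6 were lower, with a median of −0.68. Bst2, an interferon-inducible surface protein that mouse plasmacytoid dendritic cells carry constantly, was at 4490.1, 3657 and 3087 CPM beside 1004, 511 and 511.

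Beside all other cells, the lymphoid list split between genes shared with early lymphocytes and genes of committed B cells. Of 20 counted members, 8 were higher and 4 lower than in other cells (median 0.62). Beside B cell-like cells, 5 were higher and 10 lower (median −1.02). Iglc3, an immunoglobulin lambda constant gene, was at 1182, 943 and 770.0 CPM beside 142, 115 and 85.3 in other cells and 827, 814 and 725 in B cell-like cells, a difference from B cell-like cells of 0.09 to 0.51 log2 units. Immunoglobulin lambda constant genes resemble each other, and their counts can be split uncertainly. Ly6d, a marker of early lymphoid progenitors, was at 3192, 2457 and 2506 CPM beside 502, 329.9 and 299. In cells reduced to 5000 UMIs, Ly6d was found in 95.9%, 92.2% and 85.5% of gated cells. It was found in 99.4%, 97.8% and 98.7% of B cell-like cells, so it did not set the gated cells apart from these. Il7r, the receptor for interleukin-7, was at 239.6, 243 and 188 beside 47.7, 46.3 and 38.9. Dntt, the polymerase that adds bases at rearranging receptor genes, was at 128, 95.7 and 98.0 beside 46.9, 12.6 and 11.6. Notch1, Blnk, Igll1 and Ptcra were the other 4 that were higher, with Notch1 at log2 ratios of 1.71 to 2.87 and Igll1, a part of the surrogate light chain, at 2.84 to 4.20. Committed B cell genes lay on the other side, with Cd79a at 23.3, 13.0 and 15.6 CPM beside 137, 104 and 77.6, Pax5 at 7.84, 3.32 and 3.65 and Ebf1 at 9.57, 3.99 and 13.5. The recombinase gene Rag1 was at 1.81, 3.65 and 0.521 CPM.

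Some T-lineage surface genes were found while genes of the T cell receptor complex were low. Cd8b1, the beta chain of CD8, was at 572, 739.6 and 435 CPM beside 24.8, 18.3 and 18.3, and Cd4 was at 254, 212 and 116 beside 105, 60.2 and 34.9. Cd3d and Cd3g stood at 6.20, 4.65 and 3.13 and 6.20, 3.99 and 0.521 CPM, below other cells, and Cd3e was part of the gate. The Cd3e limit takes out T cells, so the low level of Cd3d and Cd3g is in part a result of the rule. Ptcra, the pre-T cell receptor alpha chain, was scarce but above other cells, at 2.41, 2.66 and 2.08 CPM beside 0.660, 1.04 and 0.852.

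Shares of cells with a UMI were compared after each cell was reduced at random to 5000 UMIs, a depth that every gated cell of the 3 libraries reached. Klk1 was found in 82.7%, 80.6% and 75.9% of gated cells and in 1.40%, 1.34% and 0.733% of B cell-like cells. Cd8b1 was found in 62.8%, 67.7% and 50.3%, beside 2.92%, 1.34% and 1.47% of B cell-like cells, and Cd4 in 56.3%, 53.4% and 39.3% beside 2.57%, 1.002% and 1.47%. Dntt was found in 41.4%, 32.3% and 37.2% beside 2.92%, 0.223% and 0.733%. The B cell-like shares give the background of free RNA for these 4 genes, and the gated cells stood far above it in every library. For Iglc3, which B cell-like cells make, the comparison was with Xcr1 dendritic cell-like cells (1.52%, 0.575% and 0.996%), and it was found in 89.3%, 77.2% and 79.3% of gated cells. Median depth before reduction was 12537, 10731 and 11086 UMIs in B cell-like cells, close to the gated cells, and 26398.5, 25159.5 and 21459 in Xcr1 dendritic cell-like cells.

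Antigen presentation was lower than in other cells by median (−0.90 over 23 counted members, 1 higher and 5 lower). The class II genes were present, with H2-Aa at 2592, 3443 and 5322 CPM beside 7138, 7654 and 8712. Costimulatory genes lay lower, with Cd86 at 35.5, 26.6 and 33.9 CPM beside 199.6, 193 and 206, Cd80 at 3.02, 4.32 and 6.77 beside 21.6, 32.3 and 30.8 and Cd40 at 35.2, 27.2 and 21.9 beside 174, 112 and 123. The single higher member was Ctsl, a lysosomal protease, at 2044, 1438 and 1121 CPM beside 116, 89.6 and 55.5. Over all genes 8.38% were higher than in other cells and 10.6% lower. Of 22 genes of the secretory pathway, 3 were higher and 1 lower (median 0.37). They were Xbp1, the factor that enlarges the endoplasmic reticulum, at 463, 354 and 275 CPM beside 99.9, 96.6 and 84.8, its activator Ern1 at 30.4, 23.9 and 19.3 beside 7.02, 8.13 and 6.71, and Edem2, which directs misfolded glycoproteins to degradation, at 193, 168 and 147 beside 54.8, 46.2 and 43.0.

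Among 19 counted homing and chemokine receptors outside the gate, 6 were higher and 3 lower (median 0.44). S1pr4, a sphingosine phosphate receptor, was at 74.7, 72.4 and 59.9 CPM beside 6.46, 7.09 and 4.53, and P2ry14, a receptor for UDP-sugars, at 537, 343 and 264 beside 76.7, 61.5 and 70.0. Itgb7, Itgal and Cxcr3 were also higher. The lower ones were Ccr7 (45.9, 26.9 and 170.4 CPM beside 187, 514 and 548), Itgae and S1pr1. Of 17 counted cytokine receptors 2 were higher and 4 lower, where 8.38% of all genes were higher and 10.6% lower. The 2 higher were Il7r and Tnfrsf13b (290.4, 254 and 207 CPM beside 42.1, 42.8 and 35.5). Csf2ra was among the 4 lower, at 78.6, 58.8 and 59.4 beside 187, 132 and 151. Flt3, the receptor that dendritic cell development needs, was level with other cells at 83.5, 97.4 and 105 CPM beside 79.7, 86.9 and 105.

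Genes tied to transitional dendritic cells, which lie between plasmacytoid and conventional ones, depended on the cells they were set beside. The list's median was 0.84 beside B cell-like, 0.16 beside Xcr1 dendritic cell-like and −1.50 beside Cd209a dendritic cell-like cells. Over all genes these medians were 0.14, 0.37 and 0.18. Beside all other cells the median was −1.02 over 15 counted, with 2 higher and 5 lower, where 8.38% of all genes were higher and 10.6% lower. The 2 higher were Ly6c2 and Cd209a, with Cd209a at 130.1, 214 and 326 CPM beside 61.8, 59.9 and 64.3. Axl was at 15.9, 9.30 and 6.77 CPM, Cd81 at 22.6, 10.96 and 22.4 beside 235, 208 and 214 and Cx3cr1 at 16.2, 18.6 and 37.5 beside 76.1, 76.2 and 69.8. Of the monocyte markers, Ly6c2 and Plac8 were high in the gated cells (3535, 3368 and 1529 and 3969, 4137 and 3162 CPM) while Chil3 was at 0.431, 0 and 0.

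**Figure D2:**
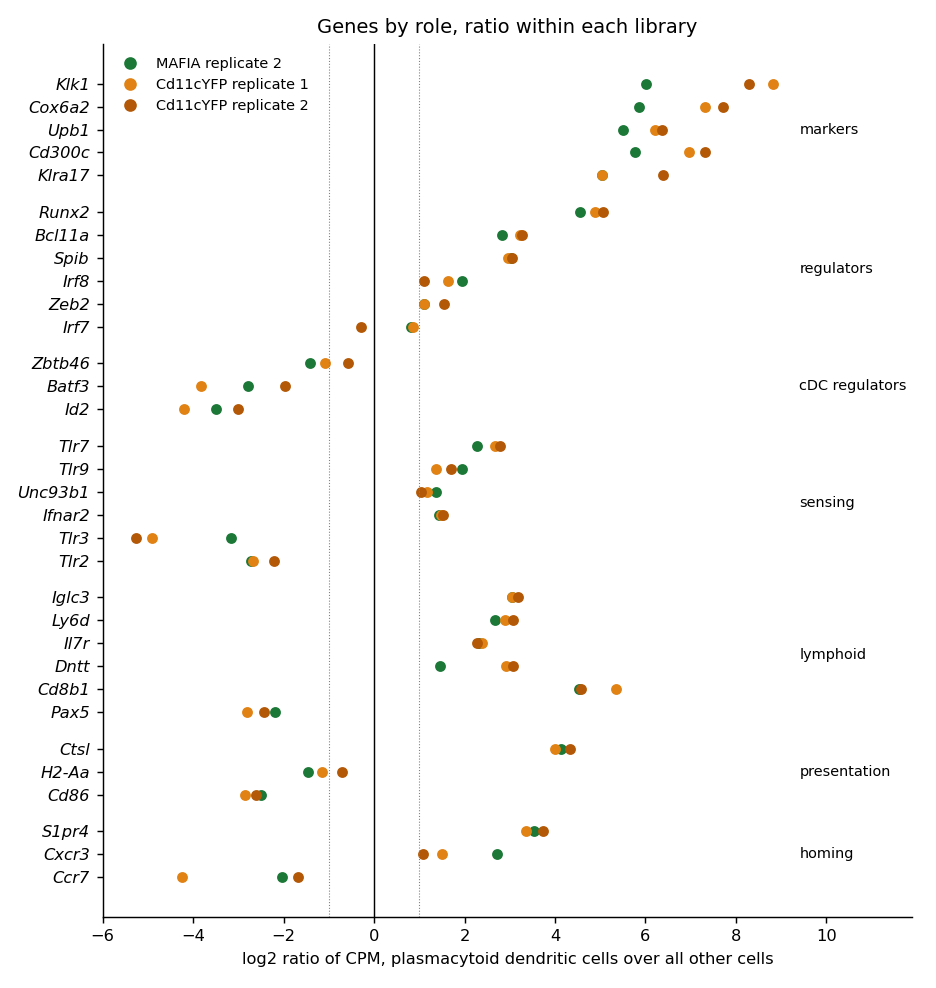
Log2 ratio of CPM between the gated cells and all other cells of the same library (x axis) for genes grouped by role (y axis), with 1 point for each of 3 libraries and dotted lines at 1 log2 unit up and down. Markers such as Klk1 and Cox6a2 lie furthest right in every library, Id2, Batf3, Tlr3 and Cd86 lie left, and Irf7 falls on both sides of 0.

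The comparison was repeated against single populations. Beside B cell-like cells 1927 genes (13.4%) were higher and 862 (6.00%) lower in all 3 libraries, and of the 34 signature genes 30 were higher. Beside Xcr1 dendritic cell-like cells (at least 2 Xcr1 UMIs) 2570 genes (17.9%) were higher and 809 (5.63%) lower, and of 20 lymphoid genes 19 were higher and 0 lower. Beside Cd209a dendritic cell-like cells 1725 genes (12.0%) were higher and 839 (5.84%) lower. The median over all genes was 0.14, 0.37 and 0.18 log2 units in these 3 comparisons.

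The gated cells differed among themselves in Klk1. Each library was split at the median of Klk1 per UMI, and the Klk1-high and Klk1-low cells were compared for 2644 genes at 50 CPM or more. In Klk1-high cells 6 genes were higher by over 1 log2 unit in all 3 libraries and 22 were lower. The genes named here were chosen after their values were seen. Klk1b27 was at 408, 459.6 and 449 CPM in Klk1-high and 86.2, 43.7 and 61.7 in Klk1-low cells. Cd8b1 was at 791, 1165 and 766 against 377, 429.6 and 213 CPM, and Cd4 at 347, 303 and 209 against 173, 145 and 53.9. Hsd11b1, which regenerates active glucocorticoid, was at 336, 259 and 164 against 155, 90.2 and 35.6, and the lambda gene Iglc2 at 262, 483 and 242 against 99.5, 48.2 and 53.9. Klk1-high cells were thus richer in both coreceptor genes. They were also richer in 2 genes of the gate, Siglech (log2 ratios 0.36, 0.64 and 1.12) and Ccr9 (0.67, 0.79 and 1.27). Dntt went the same way (0.43, 1.11 and 1.24), while Tcf4 differed less (0.08, 0.11 and 0.49). Median depth was 11484.5, 10380 and 9930 UMIs in Klk1-high and 11747.5, 12564.5 and 11632 in Klk1-low cells. The part of gate genes and depth in the split was not tested.

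Genes higher in Klk1-low cells included genes of dividing cells and genes of myeloid cells. Top2a, the topoisomerase of dividing cells, was at 98.3, 203 and 206 CPM in Klk1-low and 13.6, 7.88 and 11.7 in Klk1-high cells, and Stmn1 at 119, 294 and 348 against 26.5, 14.2 and 18.2. S100a4, a calcium-binding protein of myeloid cells, was at 458, 709 and 1209 against 80.3, 70.2 and 194 CPM. Plbd1 was at 104, 261 and 413 against 22.2, 33.9 and 40.3, and Tmem176b at 122, 123 and 315 against 19.5, 27.6 and 54.6. Il4i1, an amino acid oxidase of antigen-presenting cells, was at 209, 256 and 250.3 against 29.4, 7.88 and 16.9. Klk1 and these genes were measured in the same cells, so the split describes how they go together and is no test.

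**Figure D3:**
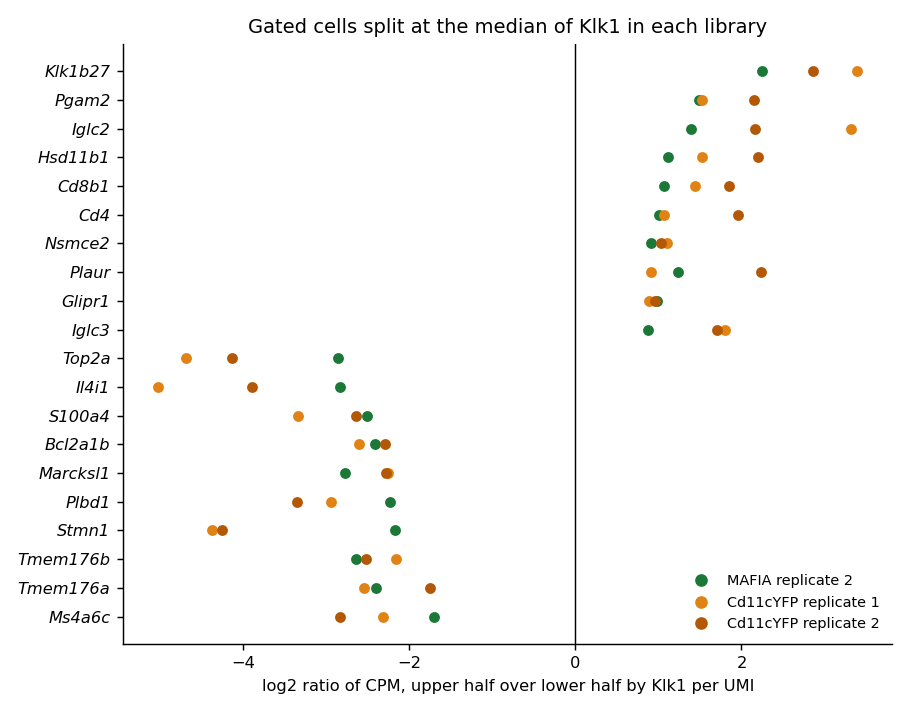
Log2 ratio of CPM between gated cells above and below the median of Klk1 per UMI (x axis) for the 10 genes with the largest smallest-of-3 ratio in each direction (y axis), with 1 point for each of 3 libraries. Klk1b27, Cd8b1 and Cd4 lie on the right and Top2a, Il4i1 and S100a4 on the left in all 3 libraries.

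A split by Isg15, an interferon-induced ubiquitin-like protein at chr4:156283883-156285303 on the minus strand, gave 13 genes higher and 0 lower in all 3 libraries. Ifitm3 was at 677, 396 and 430.0 CPM in Isg15-high and 123, 70.8 and 34.2 in Isg15-low cells, and Usp18 at 344, 156 and 173 against 73.2, 58.7 and 48.2. The parts held 440 and 440 cells, 90 and 142 cells, and 44 and 101 cells, since Isg15 was absent from many Cd11cYFP cells. Slfn5, another gene that interferon induces, was at 585, 259 and 264 against 83.0, 52.4 and 29.8, so the gated cells of each library ranged from low to high in these genes. All genes of this split were named after their values were seen.

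Ccl4, a chemokine that activated dendritic cells secrete, was among the most uneven genes and was named after its values were seen. At 5000 UMIs per cell it was found in 4.20% of gated MAFIA cells and in 57.3% and 57.2% of gated Cd11cYFP cells, while its variance was 187.6, 22.7 and 19.8 times its mean. A few MAFIA cells thus held much of it, and most held none.

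UMIs of cell cycle genes were counted per cell. With each cell reduced to 5000 UMIs, at least 3 UMIs of 16 mitosis genes were found in 27 of 880 cells (3.07%), 13 of 232 (5.60%) and 15 of 145 (10.3%). At least 3 UMIs of 15 DNA replication genes were found in more cells, in 8.86%, 12.1% and 13.8%, and among cells with no Klk1 UMI in 20.6%, 27.03% and 27.3%. Among cells with Klk1 the mitosis shares were 2.68%, 3.08% and 7.14%, and among cells with no Klk1 UMI they were 6.19%, 18.9% and 21.2%. The cells with mitosis UMIs were deeper before reduction (medians 18555, 20188 and 22706 UMIs beside 11611, 10953 and 10184.5), and Klk1 was found in 77.8%, 46.2% and 53.3% of them. Whether the cells without Klk1 are plasmacytoid dendritic cells in division or other cells that pass the gate was not tested.

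MAFIA replicate 2 was then compared with the 2 Cd11cYFP libraries on UMIs summed over the gated cells. The test used edgeR's quasi-likelihood method with 1 residual degree of freedom, and the lone MAFIA library was taken to vary like the Cd11cYFP ones. Spread was thus measured only between the 2 Cd11cYFP libraries. The p-values rest mostly on a variance shared across genes (21.8 prior degrees of freedom). Of 11165 genes tested, 356 (3.19%) were higher and 504 (4.51%) lower in the MAFIA library at an adjusted p under 0.05. In all other cells 16 of 20777 genes (0.0770%) were higher and 35 (0.168%) lower. At an unadjusted edgeR p under 0.05 there were 5278 of 20777 genes in other cells and 2079 of 11165 in gated cells. The numbers of adjusted calls therefore do not show that the libraries differed less in other cells. Whether a difference was larger in the gated cells was read from the interaction of reporter and population, which called 246 of 19646 genes (1.25%) higher and 295 (1.50%) lower, with a median of 0.12 over all genes.

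Interferon-stimulated genes formed the clearest higher group. Of 31 members tested, 26 rose in the MAFIA library and 0 fell, with a median log2 fold change of 1.33 beside −0.02 over all genes. Isg15 was at 631, 138 and 127 CPM (log2 fold change 2.24 ± 0.15, edgeR adjusted p = 4.15e-10, where ± gives 1 SE here and below). Both Cd11cYFP libraries lay far below the MAFIA library and close to each other. The RNA sensor gene Oas3 was at 47.6, 7.97 and 10.9 CPM (2.35 ± 0.25, edgeR adjusted p = 5.78e-07) and Ifit1, which binds foreign RNA, at 41.3, 7.64 and 10.4 (2.21 ± 0.26, edgeR adjusted p = 2.54e-06). Ifitm3, a restriction factor of virus entry, was at 410.4, 208 and 195 CPM (1.01 ± 0.16, edgeR adjusted p = 9.24e-05). Outside the list, Irf7 was at 1021, 532 and 233 CPM (1.40 ± 0.24, edgeR adjusted p = 3.37e-04), and its fold moved to 2.12 without Cd11cYFP replicate 1 and 0.94 without replicate 2. The 2 Cd11cYFP libraries differed from each other more than 2-fold in Irf7.

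Other cells showed the same direction with a smaller median. The list's median was 0.75 in all other cells together, and 0.56 in B cell-like, 0.79 in Xcr1 dendritic cell-like, 0.37 in Cd209a dendritic cell-like and 0.71 in macrophage-like cells. The interaction was called for 15 members, all higher in the gated cells, against 9 without the filter on low counts, 2 with DESeq2 and 0 without a library term. Among the 15 were Isg15 (1.34 ± 0.19, edgeR adjusted p = 4.40e-10) and Phf11b (1.06 ± 0.20, edgeR adjusted p = 2.73e-05). Per cell at 5000 UMIs, the median of the summed list was 67 UMIs (quartiles 50.75 and 90.25) in MAFIA replicate 2, 50 (39 and 61) in Cd11cYFP replicate 1 and 42 (34 and 52) in Cd11cYFP replicate 2. With Klk1 required, a condition added after the data were seen (as was a Siglech minimum of 20), 25 of 30 members tested were called. DESeq2 called 18 of 31, and adding MAFIA replicate 1 left 7. Ribosomal RNA (Rn18s) was also higher in the MAFIA library, at 25297 CPM beside 11543 and 11255, and in other cells at 24983 beside 11343 and 10837, and its part in these differences was not tested.

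Immediate early and heat shock genes, which respond within minutes to stress and handling, were lower in the MAFIA library. Of 16 members, 15 fell and 0 rose, with a median log2 fold change of −3.35. Fos was at 7.84, 518 and 950.3 CPM (-6.56 ± 0.32, edgeR adjusted p = 7.45e-13). Jun was at 67.9, 483 and 754 CPM (-3.20 ± 0.23, edgeR adjusted p = 6.86e-10) and Fosb at 12.1, 242 and 339 (-4.59 ± 0.25, edgeR adjusted p = 5.37e-12). Hspa1a, an inducible chaperone, was at 12.6, 22.9 and 295 CPM (-3.64 ± 0.74, edgeR adjusted p = 0.00202), but the difference rests on Cd11cYFP replicate 2, since its log2 fold change was -0.87 without that library. Atf3 moved likewise from -5.22 to -3.31. Per cell at 5000 UMIs the list's median was 3 UMIs (quartiles 2 and 5) in MAFIA replicate 2, 16 (9.75 and 24) in Cd11cYFP replicate 1 and 26 (18 and 37) in Cd11cYFP replicate 2. In other cells the list's median was −3.07 and 6 members fell. The interaction was called for 3 members, Fos (-1.30), Ier2 (-1.03) and Atf3 (-0.95), lower in the gated cells. With Klk1 required 1 of 16 was called and Atf3 turned to 0.32, DESeq2 called 1, and without likely doublets 9 were called. When and how each library was handled was not tested.

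Mitosis genes were also lower, but this depended on which cells the gate held. Of 16 members, 15 fell and 0 rose, with a median of −1.83, while the median in all other cells was 0.03. Single populations went different ways. The median log2 ratio of CPM was 0.08 in B cell-like and 0.20 in Xcr1 dendritic cell-like cells. It was −0.27 in macrophage-like and −0.62 in Cd209a dendritic cell-like cells, where all 16 members were below 0. The interaction was called for all 16, lower in the gated cells, with a median of −1.73. With Klk1 required it was called for 2 of 16, with a median of −0.40, with DESeq2 for 13 and without a library term for 0. Top2a was at 58.6, 121 and 128 CPM (-1.10 ± 0.20, edgeR adjusted p = 5.99e-04), Cenpa, the centromeric histone, at 12.6, 72.1 and 83.9 (-2.64 ± 0.22, edgeR adjusted p = 2.23e-08) and Ube2c, which works with the anaphase-promoting complex, at 24.3, 75.1 and 143 (-2.16 ± 0.28, edgeR adjusted p = 1.16e-05). In the reporter comparison with Klk1 required, 1 of 15 tested fell, Cenpa, while 7 of 16 fell at a Siglech minimum of 10, 5 of 15 at 20 and 6 of 16 with DESeq2. Of 15 DNA replication genes 2 fell, Rrm2 (-1.24) and Mcm4 (-0.84), where 4.51% of all genes tested fell. DESeq2 and the fit with MAFIA replicate 1 called 0, and Rrm2 turned to 0.33 with Klk1 required.

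**Figure D4:**
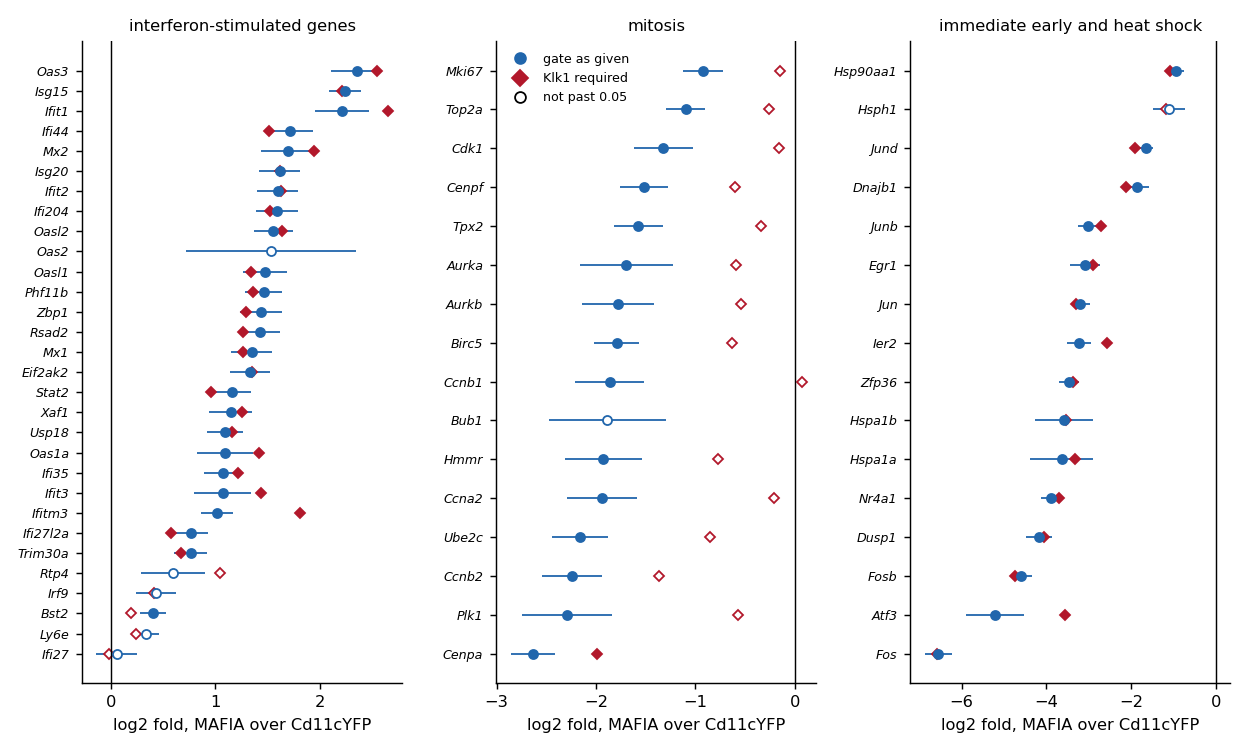
Log2 fold change between MAFIA replicate 2 and the Cd11cYFP libraries in gated cells (x axis) for tested members of 3 gene lists (y axis, with 1 interferon-stimulated gene not shown), with the gate as given (circles, bars 1 SE) and with Klk1 also required (diamonds), filled where the edgeR adjusted p was under 0.05. With Klk1 required, 25 interferon-stimulated, 15 immediate early and heat shock and 1 of 15 tested mitosis genes pass the threshold.

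**Figure D5:**
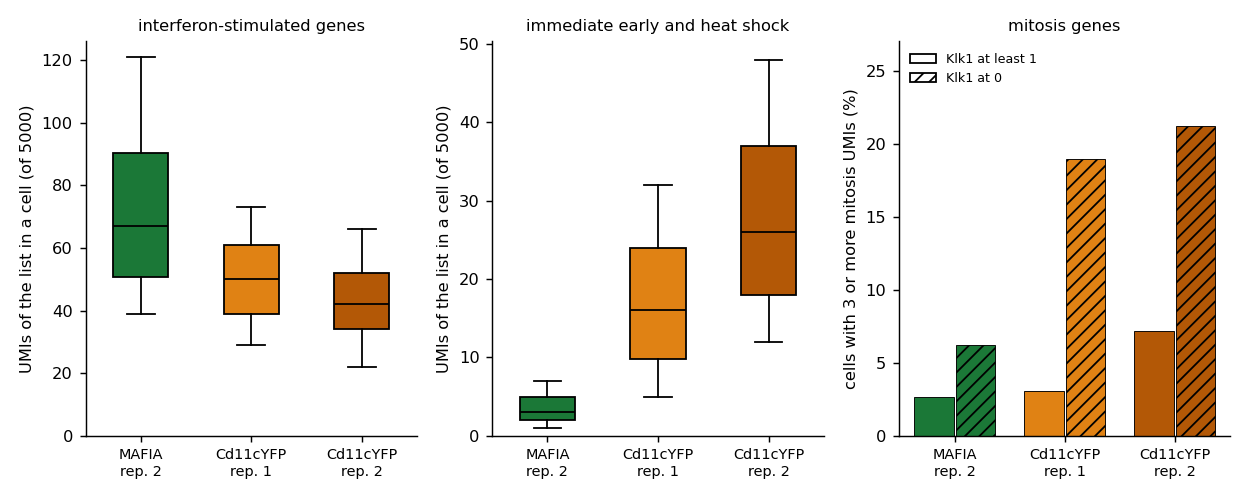
UMIs of the interferon-stimulated list (left) and of the immediate early and heat shock list (middle) in each gated cell reduced to 5000 UMIs, as median, quartiles and 10th to 90th percentile by library, and the percentage of cells with 3 or more mitosis UMIs among cells with and without Klk1 (right). The interferon-stimulated median is highest in MAFIA replicate 2 (67 UMIs), the immediate early median is lowest there (3 UMIs), and the mitosis share is higher among cells without Klk1 in all 3 libraries.

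Genes of the cell type were then read in the same comparison, where 3.19% of all genes tested rose and 4.51% fell. Of 33 signature genes tested, 7 rose and 1, Cd8a, fell, and across the alternatives between 1 (DESeq2) and 14 (no filter on low counts) rose. Of 11 transcription factors tested, Spib (0.85 ± 0.16, edgeR adjusted p = 0.00128) and Irf7 rose and Etv6 (-0.68 ± 0.20, edgeR adjusted p = 0.0359) fell. Among the signature genes that rose were Pacsin1 (0.99 ± 0.17, edgeR adjusted p = 2.97e-04) and Upb1 (0.66 ± 0.16, edgeR adjusted p = 0.00881). Klk1 (0.21) and Runx2 (-0.10) had log2 fold changes that did not pass. Ly6a rose by 0.88, and stood at 1.61 without Cd11cYFP replicate 1 and 0.40 without replicate 2. With Klk1 required 3 rose and 1 fell. The interaction was called higher for 3 and lower for 9 of 35 signature genes (0 and 8 with DESeq2, 0 and 0 without a library term), Siglech of the gate among the 35, with Klk1 at -2.33 and Cox6a2 at -1.45. Klk1 in other cells was over 5-fold higher in the MAFIA library than in each Cd11cYFP library, as its values above show.

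Conventional dendritic cell factors fell in part. Of 10 tested, 6 fell and 0 rose (4 fell with DESeq2 and 4 with MAFIA replicate 1 added). Irf4 was at 20.2, 58.8 and 76.1 CPM (-1.74 ± 0.22, edgeR adjusted p = 7.95e-06), and its interaction of -1.11 was called. Klf4 was at 43.3, 178 and 298 CPM (-2.47 ± 0.25, edgeR adjusted p = 2.79e-07), with a difference of -2.66 in other cells. Nfil3, Rel, Cebpa and Zbtb46 were the other 4, and Nfil3 moved from -2.80 to -2.09 without Cd11cYFP replicate 2. With Klk1 required 5 fell, and Zbtb46 turned to 0.13.

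Antigen presentation genes moved both ways. Of 23 antigen presentation genes tested, 3 rose and 5 fell, where 3.19% of all genes tested rose and 4.51% fell. H2-Aa was at 2592, 3443 and 5322 CPM (-0.77 ± 0.17, edgeR adjusted p = 0.00413), and H2-Ab1, H2-Eb1, H2-DMb2 (-1.04 ± 0.21, edgeR adjusted p = 0.00203) and H2-Ob also fell. Those that rose were Ctsl (0.66 ± 0.14, edgeR adjusted p = 0.00253), Tap1 (0.61 ± 0.17, edgeR adjusted p = 0.0249) and Tapbp (0.56 ± 0.15, edgeR adjusted p = 0.0185), the last 2 of which load class I molecules. In the class II genes Cd11cYFP replicate 1 lay between the other libraries, and with Klk1 required 3 rose and 2 fell. DESeq2 called 0 higher and 0 lower in this list, and with MAFIA replicate 1 added 0 rose and 2 fell.

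Some receptors rose and some fell, where 3.19% of all genes tested rose and 4.51% fell. A single fall in a list of 16 or 23 genes, as below, is near that share. Of 18 homing receptors tested, 2 rose and 2 fell. Cxcr3, the receptor for interferon-induced chemokines, was at 58.0, 34.9 and 25.5 CPM (0.91 ± 0.21, edgeR adjusted p = 0.00578) and P2ry14 at 537, 343 and 264 (0.81 ± 0.16, edgeR adjusted p = 0.00147), and the interaction was called for both (1.58 and 0.81). Gpr183, an oxysterol receptor, was at 94.1, 261 and 236 CPM (-1.41 ± 0.18, edgeR adjusted p = 8.02e-06), and Cxcr4 at 12.2, 30.9 and 38.03 (-1.49 ± 0.24, edgeR adjusted p = 1.89e-04). Of 16 cytokine receptors tested, Il3ra (0.98 ± 0.21, edgeR adjusted p = 0.00372) and Il21r (0.68 ± 0.19, edgeR adjusted p = 0.0293) rose and Il6ra (-0.67 ± 0.21, edgeR adjusted p = 0.0492) fell. Of 23 nucleic acid sensing genes tested 3 rose, Irf7, Unc93b1 (0.65 ± 0.15, edgeR adjusted p = 0.00799) and Ifih1 (1.23 ± 0.20, edgeR adjusted p = 2.36e-04), and 1 fell, Cd14 (-1.20, and -0.39 without Cd11cYFP replicate 2), while Tlr7 was at 135, 126 and 82.3 CPM and did not pass (0.35 ± 0.21, edgeR adjusted p = 0.413). Clec9a, a receptor for dead cells, was at 116, 67.5 and 38.6 CPM (1.09 ± 0.23, edgeR adjusted p = 0.0024), with an interaction of 1.61. With DESeq2 the homing receptors had 0 higher and 1 lower calls and the cytokine receptor and sensing lists 0 and 0, and with MAFIA replicate 1 added these were 0 and 2 for homing receptors and 0 and 0 for the others.

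Some of the largest folds were of genes on the sex chromosomes. Xist gave 2071, 0 and 0 CPM, at least 3403-fold higher, and Tsix at least 166.9-fold higher, against a floor of 3 UMIs over the Cd11cYFP gated cells. Ddx3y and Eif2s3y on the Y chromosome were at 0, 89.0 and 107 and 0, 85.7 and 75.5 CPM, and Uty and Kdm5d were also at 0 in the MAFIA library. S100a8, a neutrophil protein, had 68 UMIs in 60 MAFIA cells and 0 in both Cd11cYFP libraries, and other MAFIA cells held 53.0 CPM beside 1.11 and 2.81. Krt5, Dcn and Prss16 also passed the threshold, and most of their UMIs lay in single cells, as given above for Krt5 and Dcn and with 128 of 141 Prss16 UMIs in 1 MAFIA cell. Jchain, which joins immunoglobulin chains, was at 2.07, 32.9 and 94.8 CPM, beside 16.3, 368 and 273 in other cells.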

How the data were processed

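The libraries were made with 10x Single Cell 3' v3 chemistry from sorted thymic cells. Per the labels, bcl2fastq 2.20, Cell Ranger and STAR 2.7.9a were used with GRCm39 (mm39), while the study's methods name mm10, and coordinates given here are GENCODE vM39 on GRCm39. The authors deposited raw UMI counts for 55418 gene entries. Entries that share a symbol (108 symbols) were kept apart by gene ID. All columns belong to the samples described.

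The members and gene lists were chosen with earlier results of these data known. Counts of gated cells were summed per library (11604136, 3009584 and 1919355 UMIs). Levels are CPM of those sums. Beside other cells, a gene was counted when it passed 1 log2 unit in the same direction in all 3 libraries, with no test. Between the reporters, edgeR 4.0.16 in R 4.3.3 (quasi-likelihood, TMM, filterByExpr, Benjamini-Hochberg adjusted p under 0.05) was fitted to the sums, and the interaction to 6 sums with a library term. The SE is the log2 fold change divided by the square root of F. The design has 1 residual degree of freedom, and nothing says that the libraries of a reporter came from separate mice beyond the study's account.

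Genes were named by their list, as the 20 furthest above other cells at 50 CPM or more, and as the 10 largest in each direction past the threshold with 50 or more UMIs. Exceptions are stated as chosen after their values were seen. Likely doublets (0.8% per 1000 barcodes) were kept. They made up 46, 13 and 13 gated cells and were left out as an alternative. Other alternatives were DESeq2 1.42.0, no filter on low counts, Siglech minimums of 10 and 20, no Ccr9 condition, Klk1 required, no library term, adding MAFIA replicate 1 and leaving out a library. On simulated counts for the reporter comparison, 24 of 98 genes changed 2-fold and 85 of 96 changed 4-fold were recovered, with 5 of 10738 unchanged genes called. For the interaction these were 23 of 97, 48 of 94 and 1 of 18493. Intervals and the zero floor of 3 counts cover counting error only. Results on some genes are not reported here. No sequences are shown, since protein tables were not used here.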

Additional observations from a re-analysis of the deposited data

Results flagged for a closer look

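Differences between the gated cells and all other cells in how MAFIA and Cd11cYFP libraries compare were tested as an interaction in edgeR, over 19646 genes. It was called for 246 genes as higher and 295 as lower in the gated cells. The lists held 15 interferon-stimulated genes (higher), 16 mitosis genes (lower) and 3 immediate early genes (lower) among these calls.

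The 10 largest higher interactions, in log2 units, were Prss16 (3.62), Asprv1 (3.32), Serpinh1 (3.21), Ifi208 (3.02), Slpi (2.61), Ighg2b (2.43), Il12b (2.38), Igkc (2.26), Armcx6 (2.06) and Gpc1 (2.004). Igkc, the kappa light chain, was at 761, 645 and 399 CPM in gated cells and 1200.5, 3602 and 3082 in other cells. Slpi, a protease inhibitor, was at 136, 79.4 and 82.8 CPM in gated cells and 8.33, 35.8 and 18.8 in other cells. In MAFIA replicate 2, 1 cell held 128 of 141 Prss16 UMIs and another held 94 of 139 Il12b and 23 of 47 Asprv1 UMIs.

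The 10 largest lower ones were Krt5 (−7.03), Krt17 (−4.75), Hspb1 (−4.31), Timd4 (−3.71), Ifitm1 (−3.67), Plekha7 (−2.93), Aqp3 (−2.72), Tcea3 (−2.52), Fam220a (−2.43) and Gm48369 (−2.40). In Cd11cYFP replicate 2, 1 cell held 97 of 98 Krt5, 96 of 102 Krt17 and 58 of 63 Hspb1 UMIs. In Cd11cYFP replicate 1, 1 cell of 45349 UMIs with 9 Siglech and no Klk1 UMIs held 60 of 63 Ifitm1 UMIs.

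MAFIA replicate 1, which the selection rule left out, held 15 gated cells, or 0.273% of its filtered cells. Of its 106 cells with at least 5 Siglech UMIs, 69 had Xcr1 and 75 had 30 or more C1q UMIs. Klk1 was found in 10 of the 15. No group had enough libraries for an outlier check.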

How the results depend on the processing

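No paired analysis was possible because the comparison has 1 MAFIA library, so fewer than 2 replicate numbers are shared. Klk1 required and a Siglech minimum of 20 were added after the data were seen. Between the reporters, 356 genes were higher and 504 lower; with MAFIA replicate 1 added these were 58 and 188, and with DESeq2 57 and 148 (2598 adjusted p missing). For the interaction (246 higher and 295 lower), no filter on low counts gave 139 and 309 and leaving out likely doublets gave 209 and 403. Klk1 required gave 172 and 121, and DESeq2 gave 21 and 65 (9903 missing). Without a library term edgeR called 0 and 0, with 1281 genes at an unadjusted p under 0.05. Interferon-stimulated genes called higher fell from 26 to 7 with MAFIA replicate 1 added. Mitosis genes called lower fell from 15 to 7 at a Siglech minimum of 10, 5 at 20, 1 with Klk1 required and 6 with DESeq2. The cause of these changes was not tested.

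With Klk1 required, log2 fold changes turned for Zbtb46 (0.13), Cd14 (1.73), Rrm2 (0.33) and Ccnb1 (0.072), and interactions for Ifitm1 (0.37), Aqp3 (0.49), Ccnb1 (0.13), Bub1 (0.13) and Atf3 (0.32). The mean share of gated cells with a UMI moved with depth, for Klk1 from 79.7% at 5000 UMIs to 74.3% at 3000 and 83.4% without reduction, for Cd8b1 from 60.3% to 70.1% without reduction, and for Dntt from 37.0% to 27.8% and 57.2%. Leaving out each library in turn gave 1387 to 1454 genes higher and 1691 to 2176 lower beside other cells. Leaving out a Cd11cYFP library left 1 against 1, so folds were given without a test.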
